A study of Mus musculus with 384 samples.

Results

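The genes described here are the 7 members of the JUN and FOS families, Jun, Junb, Jund, Fos, Fosb, Fosl1 and Fosl2, with the accessible chromatin around them. They were chosen by name, together with every accessible window whose centre lay within 50 kb of an annotated start site of a member. By this rule 0.206% of the 50000 windows, 45 at a promoter of any gene and 58 elsewhere, and 7 of the 22350 protein-coding genes on chromosomes 1 to 19 and X were taken. The windows came from single cells of 1 breast tumor of an MMTV-PyMT mouse sacrificed at 3 months, in which the mammary tumor virus promoter drives the polyoma middle T oncogene in mammary epithelium. Cells fixed with paraformaldehyde were stained for EpCAM, found on epithelial cells, and CD45, found on leukocytes, and were profiled by Pi-ATAC, which inserts sequencing adapters into open DNA and records the stain of each sorted cell. The wells, 96 on each of 4 plates, formed 1 group in the labels, with no stain value per well, and the processed data were 1 pooled list of 500-bp windows without heights or counts. There were therefore no replicates and no test between groups. A count of windows says how many called sites lie near a gene, not how open each site was or in which cells, and the depth behind each window is unknown.

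JUN and FOS proteins are basic leucine zipper factors that pair to form AP-1, which binds the 7-base word TGAGTCA or TGACTCA. Jun proteins pair with themselves or with Fos proteins, whereas Fos proteins need a Jun partner. Fos, Fosb, Jun and Junb are immediate early genes, switched on by growth factors and stress through kinases acting on factors already bound at their promoters: serum response factor at the CArG box, CREB and ATF proteins at the cyclic AMP element, whose core is TGACGT, and AP-1 or ATF dimers at the Jun promoter. Jund is broadly expressed, and Fosl1 and Fosl2, which encode Fra-1 and Fra-2, respond later and are themselves targets of AP-1. AP-1 is well known in mammary tumor cells and in activated leukocytes.

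The promoter windows of Fos and Fosb held the CArG box and TGACGT, and that of Jun held TTACCTCA and TGACATCA, the ATF-type words of its promoter. The promoter windows of Junb held neither the CArG box nor TGACGT nor the AP-1 word, but CCAAT and TATAAA. Their sequences are shown because listed windows covered these stretches. Positions are in mouse build mm9, read along the gene's own strand, and are counted from the 5′ end of the GENCODE vM1 gene record. Capitals mark the CArG box, TGACGT and TATAAA in Fos, TGACGT and the CArG box in Fosb, TTACCTCA, TGACATCA and a MEF2 word in Jun, and CCAAT and TATAAA in Junb.
Fos, chr12:86814526-86814820, + strand, -314 to -20: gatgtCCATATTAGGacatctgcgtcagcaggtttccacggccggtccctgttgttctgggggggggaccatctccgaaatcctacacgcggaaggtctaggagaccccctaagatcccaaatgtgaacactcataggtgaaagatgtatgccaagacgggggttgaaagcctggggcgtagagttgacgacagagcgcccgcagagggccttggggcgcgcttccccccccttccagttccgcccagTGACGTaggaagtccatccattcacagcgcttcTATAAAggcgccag
Fosb, chr7:19895647-19895727, - strand, -333 to -253: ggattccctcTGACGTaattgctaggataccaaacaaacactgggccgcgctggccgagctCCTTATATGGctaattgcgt
Jun, chr4:94718927-94719087, - strand, -174 to -14: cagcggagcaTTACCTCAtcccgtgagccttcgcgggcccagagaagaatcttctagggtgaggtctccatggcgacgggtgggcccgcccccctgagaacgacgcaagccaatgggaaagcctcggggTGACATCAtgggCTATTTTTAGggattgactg
Junb, chr8:87502635-87502693, - strand, -76 to -18: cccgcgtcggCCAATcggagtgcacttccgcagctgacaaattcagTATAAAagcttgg

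Each word was searched on both strands of all windows, and a match describes the letters, not a bound site. The CArG box was found in 2.38% of the 50000 windows, TGACGT in 8.36%, TATAAA in 19.3%, CCAAT in 48%, TTACCTCA in 1.61%, TGACATCA in 2.87% and the MEF2 word in 0.732%. Over promoter windows alone these shares were, in the same order, 1.98%, 14%, 9.96%, 47.1%, 1.06%, 1.93% and 0.473%. In Fos the CArG box began at -309, TGACGT at -66 and TATAAA at -33. In Fosb TGACGT began at -323 and the CArG box at -272.

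Outside these promoters, further CArG boxes lay 12 kb downstream of Fos and on both sides of Junb, and the following stretches show them, all intergenic. Capitals mark the CArG box, and in the longer stretch downstream of Junb also TGACGT, 4 NF-kB words and a STAT word (TTCNNNGAA), which shares bases with an NF-kB word.
Fos downstream, chr12:86827052-86827085, + strand, 12212 to 12245: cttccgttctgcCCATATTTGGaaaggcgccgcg
Junb upstream, chr8:87504046-87504079, - strand, -1462 to -1429: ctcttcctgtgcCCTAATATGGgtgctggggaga
Junb downstream, chr8:87500369-87500576, - strand, 2041 to 2248: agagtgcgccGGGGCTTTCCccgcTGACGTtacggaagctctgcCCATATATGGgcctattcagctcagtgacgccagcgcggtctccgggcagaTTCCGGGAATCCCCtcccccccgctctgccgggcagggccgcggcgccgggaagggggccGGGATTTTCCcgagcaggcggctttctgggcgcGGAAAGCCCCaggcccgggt
Hook2 promoter upstream of Junb, chr8:87514271-87514304, - strand, -11687 to -11654: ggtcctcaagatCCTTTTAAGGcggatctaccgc

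All 7 members had a promoter window, meaning a window centre within 1 kb of a start site, against 43.5% of all protein-coding genes (9718 of 22350). Jun, Junb, Fos and Fosl2 had at least 2 promoter windows, against 14.5% of all genes, and Jun, Fos and Fosl2 had 3, against 3.33% of all genes with 3 or more. The thresholds of 2 and 3 windows were chosen after the values had been seen. The members had 23 (Jund), 22 (Fosb), 21 (Junb), 12 (Fosl2), 10 (Fos), 9 (Fosl1) and 6 (Jun) windows within 50 kb. Their median was 12, against a median of 3 and quartiles of 1 and 6 over all protein-coding genes, and Jun was the only member not above the upper quartile. As percentiles among all genes, counting ties by their mid-rank, the members stood at 99.8 (Jund), 99.8 (Fosb), 99.7 (Junb), 95.6 (Fosl2), 92 (Fos), 89.3 (Fosl1) and 75.7 (Jun). In the same order, 4, 6, 8, 1, 0, 9 and 0 other protein-coding genes had a start site within 50 kb. The median over all protein-coding genes was 2 such neighbours.

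Jund, Junb and Fosb lie on chromosomes 8 and 7, where the list kept more of the called peaks than elsewhere. Peak names carry a running number, from which the list held 51.8% of called peaks on chromosome 8 and 41.5% on chromosome 7, against 23.6% to 26.5% on the 16 chromosomes other than 7, 8, 9 and X. Set against genes of its own chromosome, Jund stood at the 98.8th, Junb at the 97.6th and Fosb at the 99.7th percentile, with medians of 7 windows per gene on chromosome 8 and 4 on chromosome 7. The 4 members elsewhere, Jun, Fos, Fosl1 and Fosl2, had a median of 9.5 windows, against 3 over all genes outside chromosomes 7, 8, 9 and X. Between the outermost windows of a member, leaving out these end peaks because they are kept by construction, the list kept 18 of 23 called peaks at Junb (78.3%) and 21 of 29 at Jund (72.4%), against 51.8% on chromosome 8, and 19 of 28 at Fosb (67.9%), against 41.5% on chromosome 7. It kept 8 of 13 at Fos (61.5%, chromosome 24%), 7 of 17 at Fosl1 (41.2%, chromosome 26.5%) and 9 of 26 at Fosl2 (34.6%, chromosome 24.7%), and Jun had no peak between its outermost ones. The part of the uneven retention in the members' counts was not tested.

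**Figure D1:**
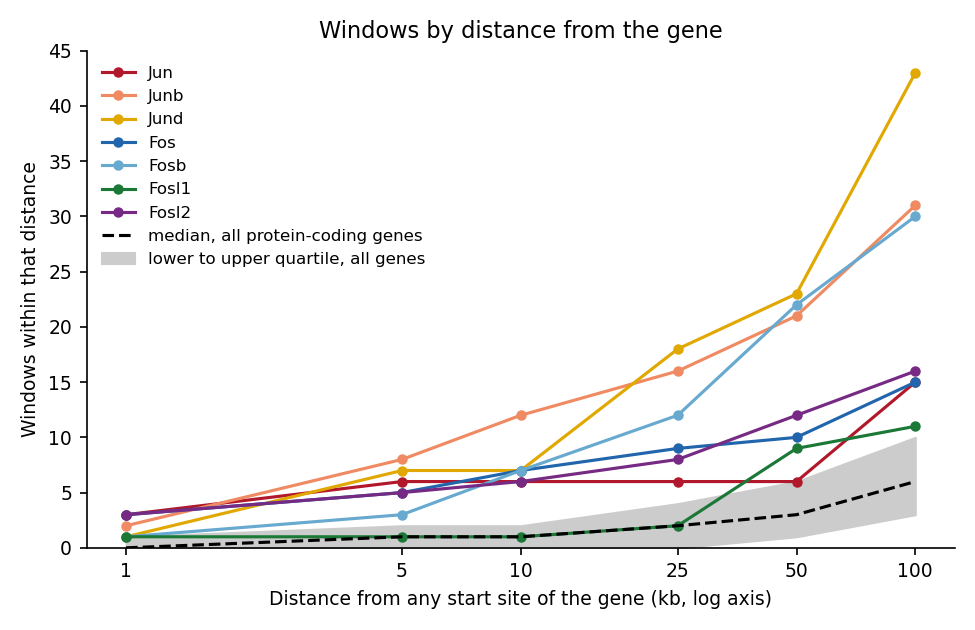
Number of windows within 1, 5, 10, 25, 50 and 100 kb of any start site (log axis), for each of the 7 members (coloured lines) and for all protein-coding genes (dashed median and grey band from lower to upper quartile). The median over the members is 7 at 10 kb and 12 at 50 kb, against 1 and 3 over all genes, and Jun stays at 6 from 5 to 50 kb.

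The members differed in how close their windows lay. Within 5 kb Junb had 8 windows, Jund 7, Jun 6, Fos 5, Fosl2 5, Fosb 3 and Fosl1 1, against a median of 1 over all genes. Jun gained none between 5 and 50 kb, whereas Fosl1 gained 8. Of these windows, 14 lay at the promoter of a member, 31 at the promoter of another gene, 40 between genes, 9 in introns, 4 in coding exons and 5 in untranslated exons. For 38 windows the nearest annotated start site was that of a member. These were 10 at Fos, 7 each at Junb, Fosb and Fosl2, 4 at Jund, 2 at Jun and 1 at Fosl1, a median of 7 against 1 over all protein-coding genes. Windows that were not at the promoter of another gene numbered 17 at Jund, 14 at Junb, 14 at Fosb, 11 at Fosl2, 10 at Fos, 3 at Fosl1 and 0 at Jun, a median of 11 against 2.

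**Figure D2:**
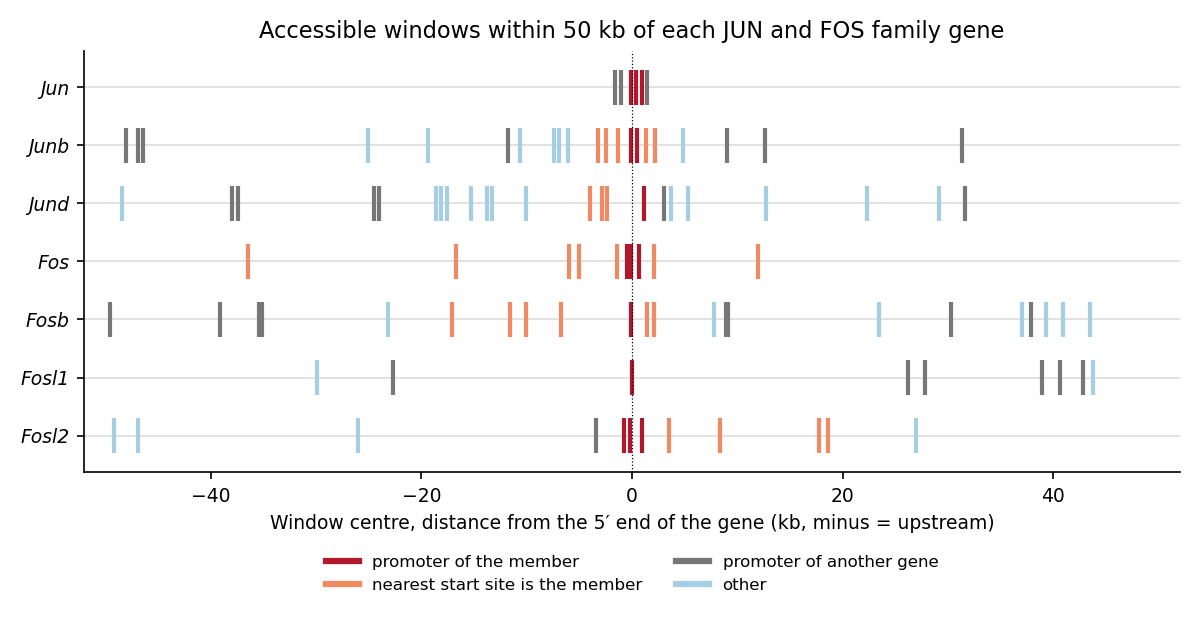
Position of each window within 50 kb of a member, 1 line per window, as distance in kb of its centre from the 5′ end of the gene record, with upstream to the left for every gene. Windows at the member's promoter are red, other windows nearest to the member orange, windows at promoters of other genes grey and the rest blue. Jun has windows only around its start, Fos only windows of its own, and Fosl1 a single window of its own.

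Jun, the founding member of AP-1 and the partner of most Fos proteins (ENSMUSG00000052684, chr4:94715725-94718913, - strand), had 6 windows packed into 3586 bp. The window over its promoter, chr4:94718758-94719257, was centred 95 bp upstream of the start. A window at chr4:94718295-94718794 was centred 0.368 kb downstream of the 5′ end and also had Jun as its nearest gene. These are the windows nearest to Jun itself. The other 4, chr4:94717197-94717696 in the coding exon, chr4:94717747-94718246, chr4:94719692-94720191 and chr4:94720283-94720782, were nearest to start sites of BC042782, a gene read from the same stretch. All 6 lay within 1 kb of a start site of BC042782, so none counted as away from other genes' promoters. Of the 6, 5 were summits of 1 called peak, and 3 of the 49030 kept peaks in the list had as many named summits. Counting called peaks in place of windows, Jun had 2. No window of Jun held the AP-1 word, and no other protein-coding gene had a start site within 50 kb.

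Junb, which can oppose Jun in the cell cycle and is induced within minutes by serum and cytokines (ENSMUSG00000052837, chr8:87500811-87502617, - strand), had a close cluster of 7 windows of its own. They were centred 2228, 1324 and 440 bp downstream of the start (chr8:87500139-87500638, chr8:87501043-87501542 and chr8:87501927-87502426) and 64, 1349, 2455 and 3177 bp upstream (chr8:87502431-87502930, chr8:87503716-87504215, chr8:87504822-87505321 and chr8:87505544-87506043). The cluster thus covered the promoter, the single exon and both flanks of the gene. The CArG boxes shown above fall in windows on either flank, beginning at 2085 and at -1450. The downstream window, just past the end of the gene, also held TGACGT and 4 NF-kB words. That number of NF-kB words or more was found in 1 of the members' windows and in 11 of all 50000, a comparison made after the word count had been seen.

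Upstream of Junb, 4 windows before the promoter of Hook2, which encodes a microtubule linker protein, had Hook2 as nearest gene: chr8:87508452-87508951, chr8:87509338-87509837, chr8:87509783-87510282 and chr8:87512963-87513462. The window centred 6971 bp upstream, chr8:87509338-87509837, held 3 copies of the AP-1 word. At least 3 copies were found in 87 of all 50000 windows (0.174%), a comparison also made after the copies had been seen. The Hook2 promoter window chr8:87514156-87514655 followed, and chr8:87521729-87522228 lay in a coding exon of Hook2. Farther out, chr8:87527451-87527950 was nearest to Best2, a bestrophin channel gene. Windows chr8:87548825-87549324 and chr8:87549246-87549745 lay at the promoter of Asna1, an ATPase of tail-anchored protein insertion, and chr8:87550424-87550923 at that of 2310036O22Rik. Downstream of Junb, chr8:87497561-87498060 lay in an intron of Prdx2, a peroxide-reducing enzyme, chr8:87493385-87493884 and chr8:87489743-87490242 were nearest to Rnaseh2a, the catalytic subunit of RNase H2, and chr8:87471072-87471571 was nearest to Rtbdn. In all, 7 of the 21 windows of Junb were at promoters of other genes.

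Jund, the member present in most resting cells (ENSMUSG00000071076, chr8:73221638-73224515, + strand), had the most windows and 1 promoter window. That window, chr8:73222499-73222998, was centred 1111 bp downstream of the 5′ end of the gene record and close to its inner start site, and the promoter call was lost when the 5′ end alone was used. It held the full cyclic AMP element TGACGTCA at 996, found in 1.37% of all windows and in 3.39% of all promoter windows. It also held 53 CpG. The remaining 3 windows of its own lay upstream at chr8:73217368-73217867, chr8:73218527-73219026 and chr8:73219024-73219523. Beyond them, chr8:73202782-73203281, chr8:73203289-73203788, chr8:73203877-73204376, chr8:73206116-73206615, chr8:73207637-73208136, chr8:73208144-73208643 and chr8:73211284-73211783 were nearest to Lsm4, a component of the spliceosome. From 2.36 to 18.6 kb upstream this made 10 intergenic windows before the first at another gene's promoter, the longest such run among the members.

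The other upstream windows of Jund were chr8:73196885-73197384 and chr8:73197349-73197848 at the promoter of Lsm4, and chr8:73172937-73173436, chr8:73183403-73183902 and chr8:73184021-73184520, nearest to the peptidase gene Pgpep1. Downstream, chr8:73224389-73224888, chr8:73225114-73225613, chr8:73226696-73227195 and chr8:73234086-73234585 were nearest to Gm11175. The last 3, chr8:73243702-73244201, chr8:73250552-73251051 and chr8:73253016-73253515, were nearest to Pde4c, a phosphodiesterase that degrades cyclic AMP. Windows at promoters of other genes thus made up 6 of the 23.

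Fos, the prototype immediate early gene (ENSMUSG00000021250, chr12:86814840-86818223, + strand), was the only member whose windows all had the member as their nearest gene. Promoter windows were chr12:86814101-86814600, chr12:86814495-86814994 and chr12:86815239-86815738, centred 489 and 95 bp upstream and 649 bp downstream of the 5′ end. The CArG box at -309 lies in the overlap of the upstream pair. Upstream windows were chr12:86813182-86813681, chr12:86809534-86810033, chr12:86808577-86809076, chr12:86797870-86798369 and chr12:86778125-86778624, centred 1.41, 5.06, 6.01, 16.7 and 36.5 kb from the start. Downstream, chr12:86816641-86817140 lay over a coding exon, and chr12:86826576-86827075, centred 12 kb from the start, carried the CArG box shown above, with TGACGT at 12196. No window of Fos held the AP-1 word, and no other protein-coding gene had a start site within 50 kb. By its number of windows of its own, Fos stood at the 99.1st percentile of all protein-coding genes, against the 97.5th for Junb, Fosb and Fosl2.

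Fosb, which encodes FosB and the long-lived splice form ΔFosB (ENSMUSG00000003545, chr7:19888070-19895394, - strand), had 1 promoter window, chr7:19895280-19895779, centred 0.136 kb upstream of the start. Introns of the gene held chr7:19893722-19894221 and chr7:19893096-19893595, 1422 and 2048 bp downstream. Upstream, 5 intergenic windows led to Ercc1, a DNA repair gene: chr7:19901913-19902412, chr7:19905228-19905727, chr7:19906749-19907248, chr7:19912223-19912722 and chr7:19918301-19918800, from 6.77 to 23.2 kb from the start. The last of these was nearest to Ercc1 and the others to Fosb. Of these 5 windows 4 held the AP-1 word, all but the one centred 10.1 kb upstream. Such upstream windows with the word numbered 3 of 10 at Jund, 2 of 7 at Junb and 0 of 5 at Fos. Over all windows away from promoters the share with the word was 15.6%. This set of upstream windows was not among the planned counts.

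Farther upstream of Fosb, chr7:19930250-19930749, chr7:19930531-19931030 and chr7:19934262-19934761 lay at start sites of Ercc1, and chr7:19944717-19945216 at those of Ppp1r13l and Cd3eap. Downstream, chr7:19887315-19887814, chr7:19886255-19886754 and chr7:19885993-19886492 were nearest to Gm17589, chr7:19871659-19872158 to the reticulon gene Rtn2 and chr7:19864902-19865401 to the phosphatase gene Ppm1n. A group of 5, chr7:19858077-19858576, chr7:19857264-19857763, chr7:19855824-19856323, chr7:19854214-19854713 and chr7:19851654-19852153, was nearest to Vasp, a regulator of actin filaments, and 3 of the 5 held the AP-1 word. Over all windows 13.5% held the word, and 15.6% of those away from promoters. This group, nearest to Vasp and not to Fosb, was not among the planned counts. Windows at promoters of other genes made up 8 of the 22.

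Fosl1, whose product Fra-1 is linked to invasion of breast cancer cells (ENSMUSG00000024912, chr19:5447703-5455945, + strand), had a single window nearest to it. This was the promoter window chr19:5447485-5447984, centred 32 bp downstream of the start, which held the AP-1 word in the untranslated part of an exon. The other 8 windows lay at least 22.7 kb away among close neighbours, since 9 other protein-coding genes had a start site within 50 kb, against a median of 2. They were chr19:5417510-5418009, nearest to Gm6293, chr19:5424739-5425238 at the promoter of Drap1, a transcriptional corepressor, chr19:5473648-5474147 and chr19:5475251-5475750 at Efemp2, which encodes fibulin-4, chr19:5486366-5486865 and chr19:5488089-5488588 at the nuclease gene Mus81, and chr19:5490293-5490792 and chr19:5491241-5491740 at the cofilin gene Cfl1. Of the 9 windows, 6 were at promoters of other genes, and the percentile of Fosl1 was 64.5 without them, against 89.3 with them.

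Fosl2, which encodes Fra-2 (ENSMUSG00000029135, chr5:32438845-32460204, + strand), had 7 windows of its own, starting 738 bp upstream and running through the gene. Promoter windows were chr5:32437857-32438356, chr5:32438429-32438928 and chr5:32439589-32440088, of which the upstream pair were summits of 1 called peak. Introns held chr5:32442094-32442593 and chr5:32446970-32447469, and untranslated sequence near the 3′ end held chr5:32456321-32456820 and chr5:32457200-32457699. The outermost promoter window held both TGACGT at -689 and the AP-1 word at -618. Other windows were chr5:32435146-32435645 and chr5:32412635-32413134, nearest to Gm10463, chr5:32391734-32392233 and chr5:32389428-32389927, nearest to Bre, a subunit of a BRCA1 complex, and chr5:32465601-32466100, nearest to a U6 gene. Only 1 of the 12 was at the promoter of another gene.

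The AP-1 word, the binding site of the members' own products, was found in 18 of the members' windows (17.5%, exact binomial 95% interval 10.7% to 26.2%), against 13.5% of all windows. It was in 6 of the 38 windows nearest to a member (15.8%) and in 12 of the 65 nearest to another gene (18.5%). The interval covers counting error only, and windows of 1 locus are not independent. Fosb had 8 such windows, Jund 4, Junb 3, Fosl2 2, Fosl1 1 and Jun and Fos 0. On chromosomes 7 and 8 the word was in 15 of 66 windows of Fosb, Junb and Jund (22.7%, interval 13.3% to 34.7%). In the windows of the other 4 members it was in 3 of 37 (8.11%, interval 1.7% to 21.9%). Over all windows these shares were 12.4% on chromosomes 7, 8, 9 and X and 14.1% elsewhere. The members' share lay above that of all windows in the first set, where Fosb held 8 of the 15. In the second set the interval covered the share of all windows. Away from promoters the word was in 13 of 58 windows of the members (22.4%, interval 12.5% to 35.3%), against 15.6% of all such windows. At promoters of any gene it was in 5 of 45 (11.1%, interval 3.71% to 24.1%), against 7.78%. Both of these intervals covered the share of all windows of their kind. Within its promoter windows the word was found for 2 members, Fosl1 and Fosl2, against 9.8% of genes with a promoter window.

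The stretches around these words show how they lie in the windows nearest to or between the members and their neighbours, each read along the strand of the named member. Capitals mark the AP-1 word and, in Fosl2, also TGACGT. The Fosl1 stretch lies in an untranslated exon and the others between genes.
Fosl2, chr5:32438148-32438242, + strand, -697 to -603: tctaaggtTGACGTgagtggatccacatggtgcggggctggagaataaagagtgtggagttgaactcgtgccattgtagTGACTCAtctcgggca
Fosl1, chr19:5447886-5447914, + strand: agaggcgcgagTGAGTCAgaaccgcagcc
Fosb, chr7:19902337-19902367, - strand, -6973 to -6943: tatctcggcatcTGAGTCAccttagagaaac
Fosb, chr7:19902118-19902148, - strand, -6754 to -6724: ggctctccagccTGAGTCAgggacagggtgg
Fosb, chr7:19907009-19907039, - strand, -11645 to -11615: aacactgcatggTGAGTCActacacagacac
Fosb, chr7:19912685-19912715, - strand, -17321 to -17291: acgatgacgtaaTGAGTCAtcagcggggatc
Junb, chr8:87505208-87505238, - strand, -2621 to -2591: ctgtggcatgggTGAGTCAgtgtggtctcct
Junb, chr8:87509548-87509664, - strand, -7047 to -6931: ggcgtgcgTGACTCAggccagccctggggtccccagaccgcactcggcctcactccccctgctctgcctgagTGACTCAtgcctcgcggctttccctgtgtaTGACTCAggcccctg
Jund, chr8:73203532-73203562, + strand, -18106 to -18076: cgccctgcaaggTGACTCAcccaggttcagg
Jund, chr8:73208396-73208426, + strand, -13242 to -13212: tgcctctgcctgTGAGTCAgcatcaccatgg
Jund, chr8:73226844-73226874, + strand, 5206 to 5236: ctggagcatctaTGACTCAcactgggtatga

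The AP-1 word lay within the central 200 bp of the window in 7.77% of the members' windows, against 6.66% of all windows, where 17.5% and 13.5% held it anywhere. The centre is the summit of the peak. The word of Jund at -18094 was 8 bp from it, that of Jund at -13230 was 17 bp and that of Fosb at -11633 was 25 bp. The middle of the 3 copies upstream of Junb was 1 bp from the summit. Others lay at the edge of their window, such as the copy at -17309 of Fosb.

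**Figure D3:**
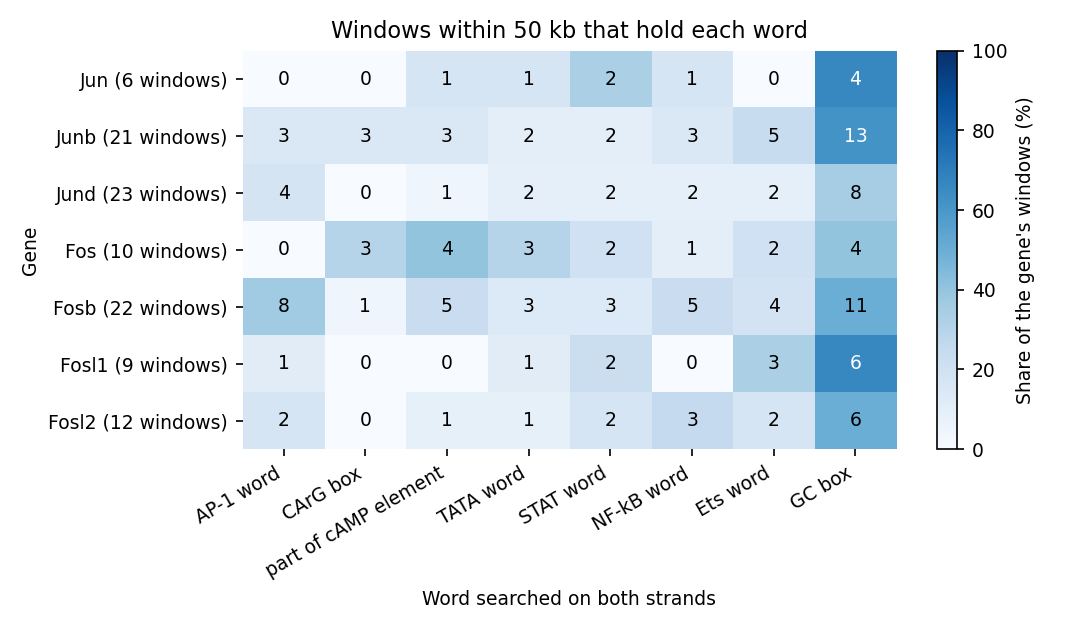
Number of windows within 50 kb that hold each word (figures in the cells), with the shade giving the share of the gene's windows, for the 7 members. The AP-1 word is in 8 of 22 windows of Fosb and in 0 of 6 at Jun and 0 of 10 at Fos, while the CArG box is in 3 windows each of Fos and Junb and 1 of Fosb.

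The CArG box was in 7 of the members' windows (6.8%, interval 2.78% to 13.5%), against 2.38% of all windows. The Fos promoter box counts in both of the overlapping windows that hold it, and the interval treats these as separate. Another of these windows is the promoter window of Hook2. The box is a known site at immediate early promoters, as described above, so its presence at Fos and Fosb is no independent finding. In its promoter windows the box was found for 2 members, Fos and Fosb, against 2.58% of genes with a promoter window. CArG box and TGACGT were together in 4 windows (3.88%, interval 1.07% to 9.65%): the promoters of Fos and Fosb, the window downstream of Junb and the window 12 kb downstream of Fos. Over all windows the pair was found in 0.216%, or in 9.06% of those with a CArG box. This pair of words was chosen after the members' matches had been seen. Jund, Jun, Fosl1 and Fosl2 had no CArG box in any window.

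The promoter windows of the members were rich in CpG, with a median of 41 CpG per 500 bp, against 31 over all promoter windows. Over all windows of the members the median was 15, against 7 over all 50000, and 43.7% of the members' windows were at a promoter of any gene, against 26.6%. Windows with the AP-1 word held fewer CpG than those without it, both among the members (medians 12.5 and 19) and over the whole list (6 and 7). They were also less often at a promoter, 27.8% against 47.1% among the members and 15.3% against 28.4% over the list. The CpG difference at equal promoter share was not tested. Among single windows the members ranged from 2 CpG, upstream of Jund, to 62 at Drap1 near Fosl1.

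**Figure D4:**
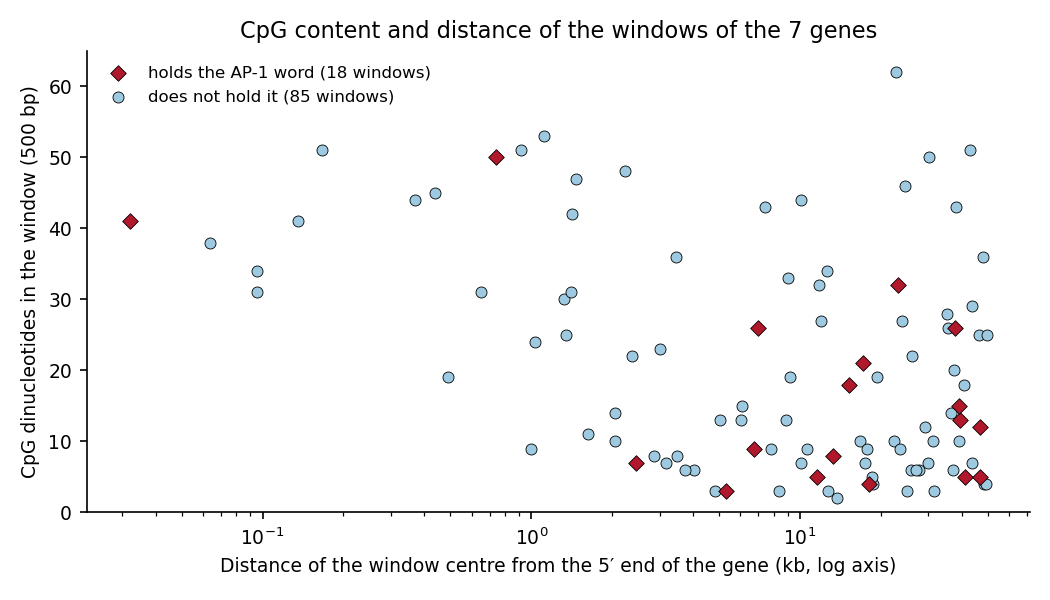
CpG dinucleotides per 500-bp window against the distance of the window centre from the 5′ end of the gene (kb, log axis), for the windows of the 7 members. Red diamonds hold the AP-1 word (18 windows) and blue circles do not (85 windows). Windows with the word closest to a member are those of Fosl1 at 32 bp and Fosl2 at 738 bp.

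Genes that act with AP-1 were read from the same list, as counts beside the 43.5% of all protein-coding genes with a promoter window and their median of 3 windows. The 5 lists held 72 genes, of which 56 (77.8%) had a promoter window. Among 17 other immediate early genes, which respond to the same signals as Fos and Jun, 15 had a promoter window and the median was 10 windows. Ier5, Zfp36 and Klf6 had the most, 19, 18 and 18, and Ier3 and Cyr61 had no promoter window, with 15 and 6 windows within 50 kb. Zfp36 lies on chromosome 7, and the 14 genes of this list outside chromosomes 7, 8, 9 and X also had a median of 10.

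Of 14 factors that act on the Fos and Jun promoters, 13 had a promoter window, with a median of 5. Mef2d, Elk3 and Mkl1 had the most, 10, 9 and 7, and Atf1, which binds the cyclic AMP element, had no promoter window and 3 windows. Srf, the factor of the CArG box, had a promoter window and 3 windows within 50 kb. Of 18 kinases of the pathway, 15 had a promoter window, with a median of 5.5. Map3k1, Map2k2 and Map2k7, which lie upstream of the JNK and ERK kinases, had the most, 14, 13 and 12, of which Map2k7 lies on chromosome 8, and the 14 kinases outside chromosomes 7, 8, 9 and X had a median of 4.5. The genes Mapk10, Mapk14 and Map2k6 had no promoter window, with 4, 0 and 5 windows. Of the 7 leucine zipper partners, 5 had a promoter window, with a median of 5. Atf3, a stress-induced partner of Jun, had 12 windows, Atf2 7 and Batf 6, and Atf7 and Batf3 had no promoter window, with 2 and 4 windows.

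Textbook targets of AP-1 stood nearer to the background, with a promoter window at 8 of 16 and a median of 4 windows. Hmox1, the haem oxygenase, had 17, Plaur, the urokinase receptor, 14 and the cytokine Il11 14. These 3 genes lie on chromosomes 8, 7 and 7, where more called peaks were kept, and the 8 targets on chromosomes other than 7, 8, 9 and X had a median of 2 windows. Of the 8 without a promoter window, Timp1 had 4 windows, Mmp10 3 and Mmp3 2, as had Mmp9 and Il2. The remaining 3, Ccl2, Spp1 and Il6, had 1, 1 and 0 windows.

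**Figure D5:**
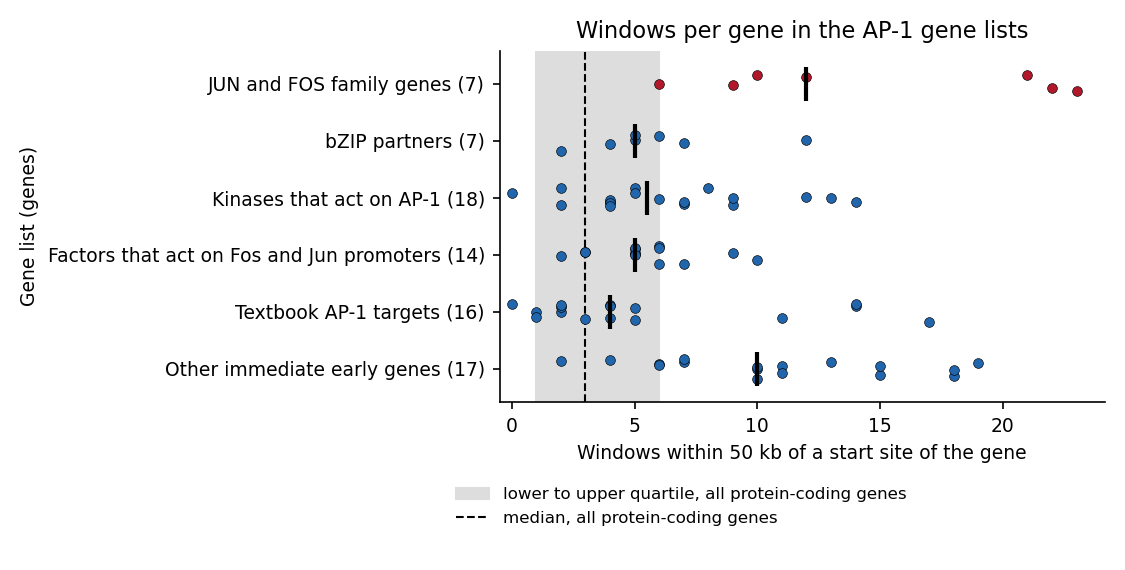
Windows within 50 kb of a start site per gene, 1 point per gene, for the 7 members (red) and 5 lists of AP-1 related genes (blue), with a bar at each median. The grey band runs from 1 to 6 windows, the quartiles of all protein-coding genes, and the dashed line marks their median of 3. The members' median of 12 is followed by 10 for other immediate early genes, and the other lists lie between 4 and 5.5.

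For the cell types in the tumor, a promoter window was found at 2 of 6 epithelial markers, 3 of 5 leukocyte markers, 3 of 3 fibroblast markers and 0 of 3 endothelial markers, with 0 of 3 hepatocyte genes for reference. The share over all protein-coding genes was 43.5%. With 3 to 6 genes per type, these counts do not say which cell types contributed. Epcam and Ptprc, which encode the stained proteins EpCAM and CD45, had 9 and 4 windows within 50 kb and no promoter window, and the keratin genes Krt8, Krt18 and Krt19 had none either. An unlisted promoter may still be open. For the aggregated cells of each stain, the paper reports accessible chromatin at the Epcam and Cd45 (Ptprc) loci that was specific to the cell type. The list does not assign windows to cells, so which cells contributed the windows of the members cannot be told apart.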

How the data were processed

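Single cells of a MMTV-PyMT breast tumor were measured by Pi-ATAC. Per the labels and methods, adapter-trimmed reads were aligned by the authors to mm9 using Bowtie2 2.1.0, and low-quality reads, mitochondrial reads and duplicates (Picard 1.79) were left out. Cells were aggregated, summits were called with MACS2 (version not given in the sources used here) and widened to 500 bp, and the 50000 windows of lowest q were kept. The deposited values are of unit other: window positions and peak names, with no score or count. Keeping a fixed number of windows means that an unlisted site may still be open.

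Positions were read in mm9 with the NCBIM37 genome and GENCODE vM1 annotation, counting from 1. The windows, words and gene lists were handled with Python 3.11.15, numpy 2.4.6, pandas 2.3.3, scipy 1.17.1 and matplotlib 3.10.9. A window belonged to a gene when its centre lay within 50 kb of any start site, and to a promoter within 1 kb. Shares carry exact (Clopper-Pearson) 95% intervals, which cover counting error only. The called peaks of a chromosome are an estimate from running peak numbers. It is the highest kept number minus that of the chromosome before it in name order, and may lie above or below the true number. Named genes are the 7 members, the nearest gene of each window, and from each list the genes without a promoter window (the 3 with most windows where there were over 5) and the 3 with most windows. Others named were picked after their values had been seen. The members and lists were chosen with earlier results of these data known. Counting was tested on simulated data, where planted windows were recovered at 200 of 200 genes. Alternatives changed the reach, promoter distance, start sites, treatment of overlapping or multiple summits, background genes and word.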

Additional observations from a re-analysis of the deposited data

How the results depend on the processing

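Of 56 values under the alternatives, 40 counts and shares stayed within 1.5 times the reported count or within the interval of the reported share, and 6 did not. The other 10 are the members' median percentile, which ranged from 90.9 to 98.8. The windows within reach of the members, 0.206% of the list at 50 kb, made up 0.092% at 10 kb and 0.322% at 100 kb, and at 10 kb their median per member was 7, against 1 over all genes. The members' median percentile of 95.6 became 98.8 at 10 kb, 97.3 at 25 kb and 90.9 at 100 kb. It was 96.2 with start sites of protein-coding transcripts, 96.9 with gene 5′ ends, 96.5 with overlapping windows merged, 94.6 with the first window of each called peak, 97.6 within chromosomes, 96.8 among all annotated genes, and 94.4 for the 4 members outside chromosomes 7, 8, 9 and X. For these 4, promoter windows were found at 4, and the AP-1 share was 8.11%. In the central 200 bp the word was in 7.77% of the members' windows, against 6.66% of all windows. With gene 5′ ends alone, 6 of 7 members had a promoter window, all but Jund. Counting the first window of each called peak gave Jun 2 windows in place of 6. No paired analysis was possible because the data are 1 pooled list. Without scores, depth and stricter peak thresholds could not be examined.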

Other observations

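Words of other factors were also read in the windows of the members, as counts only. Of the 45 such windows at promoters, 14 were at the promoter of a member and 31 at that of another gene. The members' windows were richer in G and C than the list, with a median of 57% against 49.8% over all windows. The part of this in the word shares was not tested. The GC box GGGCGG was in 32 of the 45 windows at promoters (71.1%), against 64.3% of all promoter windows, and in 20 of 58 windows away from promoters (34.5%), against 11.5%. TATAAA was in 10 of the 45 promoter windows (22.2%, interval 11.2% to 37.1%), against 9.96%, and in 3 of 58 away from promoters (5.17%), against 22.7%. The promoter windows with it were those of BC042782, Hook2, Pde4c, Gm17589 and Drap1, and among the members those of Junb, Fos and Fosb. NF-kB words were in 15 of the members' windows (14.6%, interval 8.39% to 22.9%), against 7.28%, with 5 windows at Fosb and 3 each at Junb and Fosl2. The RUNX word TGTGGT was in 21 of 58 windows away from promoters (36.2%), against 37.4%, and the STAT word in 15 of all the members' windows (14.6%), against 13.1%. The CTCF word was in 0 of the members' windows, which allows a share of up to 2.91% when 3 counts are taken as the limit, or 3.52% by the exact interval, against 1.31% of all windows.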
